A study of Mus musculus with 6 samples.

Results

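The galectin family was followed in enterospheres, the floating spheres that form when cells of the muscle wall of neonatal mouse gut are dissociated and cultured, and in which enteric neural progenitors grow together with glia, smooth muscle and fibroblasts. The 8 genes are Lgals1, Lgals2, Lgals3, Lgals4, Lgals8, Lgals9 and Lgals12, which encode galectins, and Lgals3bp, which encodes a secreted glycoprotein that binds galectin-3 and is itself no galectin. They were selected by their gene symbols among the 19938 genes measured, and where a gene had several rows in the table the row was to be chosen by the highest mean over all 6 arrays. Each of the 8 had 1 row, so no choice had to be made. The family was taken up with its differences between the 2 groups already known, in particular that of Lgals3, so these differences are given as a description and not as a test.

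All 6 samples came from C57BL/6 mice up to 12 hours old, with 3 mice per sample according to the labels. Cells were cultured for 4 and then 5 days with EGF at 10 ng/mL and FGF at 20 ng/mL, and about 50 floating enterospheres per dish were carried on. In the proliferation group (3 arrays) both factors were kept for a total of 11 days, and in the differentiation group (3 arrays) 9 days of proliferation were followed by 2 days in medium without them. By the labels, ascorbic acid-2-phosphate was part of this second medium and not of the first, so loss of the factors and the added ascorbate cannot be told apart. The study's methods differ from the labels on the number of pups, the dose of EGF and the length of the first 2 culture steps. Total RNA was hybridised to 1 GeneChip Mouse Gene 1.0 ST array per sample, and the deposited values are log2 expression levels. The 6 enteric glia and 9 enteric neuron markers that were measured all had means at or above the median row mean of 6.15. Whole enterospheres were measured, so more cells that express a gene and more RNA per cell cannot be told apart.

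Galectins are lectins that bind beta-galactosides, mostly on the N-acetyllactosamine units of N- and O-glycans. They are made in the cytosol and leave the cell without a signal peptide, so that the same protein can crosslink glycoproteins outside the cell and mark damaged vesicles within it. Prototype galectins such as galectin-1 and galectin-2 have a single carbohydrate recognition domain and pair up as dimers. Galectin-3 is the chimera type, with a long tail rich in proline and glycine before its domain, and galectins 4, 8, 9 and 12 carry a pair of different domains in tandem. Galectin-3 is also known as Mac-2, a surface marker of activated macrophages, and it is made by epithelia, fibroblasts and Schwann cells after injury. Galectin-1 is abundant in mesenchyme and glia, galectin-2 and galectin-4 in gut epithelium, and galectin-12 in fat cells.

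The promoter sequences of 6 of the 8 genes were found in a RefSeq table of build GRCm38.p6, and the 250 bases before the gene start are shown for the 3 members whose group means lay farthest apart, Lgals3 (chr14:47373610-47373859, plus strand), Lgals3bp (chr11:118401960-118402209, minus strand) and Lgals9 (chr11:78984925-78985174, minus strand). Capitals mark matches to a searched motif.
Lgals3: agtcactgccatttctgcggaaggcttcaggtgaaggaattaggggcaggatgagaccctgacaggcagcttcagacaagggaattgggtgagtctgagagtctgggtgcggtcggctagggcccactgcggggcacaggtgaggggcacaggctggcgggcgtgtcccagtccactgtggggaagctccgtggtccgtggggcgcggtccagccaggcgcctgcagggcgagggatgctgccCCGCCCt
Lgals3bp: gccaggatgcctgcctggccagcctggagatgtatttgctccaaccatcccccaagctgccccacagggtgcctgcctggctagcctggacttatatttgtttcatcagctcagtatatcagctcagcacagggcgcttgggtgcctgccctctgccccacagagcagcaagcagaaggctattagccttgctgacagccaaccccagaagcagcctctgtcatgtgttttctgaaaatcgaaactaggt
Lgals9: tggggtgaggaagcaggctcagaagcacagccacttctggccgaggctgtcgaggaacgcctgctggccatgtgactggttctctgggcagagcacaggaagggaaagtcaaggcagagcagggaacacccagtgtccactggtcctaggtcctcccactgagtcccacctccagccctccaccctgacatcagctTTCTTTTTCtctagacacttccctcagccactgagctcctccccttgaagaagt

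The motifs were AP-1 (TGANTCA), CRE (TGACGTCA), E-box (CACGTG), SP1 (GGGCGG), a core of the interferon-stimulated element (GAAANNGAA) and the TATA-box letters (TATAAA), each searched on both strands over the same 250 bases. The Lgals3 window held 1 SP1 match on the minus strand, 7 bases before the start, as did 32.9% of 27025 promoters. The Lgals9 window held 1 match to the interferon core on the minus strand, 54 bases before the start, a motif found in 7.16% of promoters. The windows of Lgals3bp, Lgals2, Lgals4 and Lgals8 held no match to these letters. In base composition the Lgals3 window stood at 66.0% G and C with 13 CG dinucleotides, against a median over all promoters of 52.0% and 6, while that of Lgals3bp held 55.6% and 2 and that of Lgals9 58.4% and 3.

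Of the galectin genes, Lgals3 (transcript cluster 10414360) alone had a large difference between the groups. Its log2 expression was 7.40, 7.75 and 7.79 on the 3 proliferation arrays and 11.32, 11.17 and 11.29 on the 3 differentiation arrays. The highest proliferation array lay 3.38 log2 units below the lowest differentiation array, while the arrays of a group spanned no more than 0.39. The group means of 7.65 ± 0.22 and 11.26 ± 0.08 (SD, n = 3) differed by 3.61 on the log2 scale (standard error 0.12), a 12.2-fold higher level in differentiation. Leaving out any 1 array kept the log2 difference between 3.49 and 3.69.

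**Figure D1:**
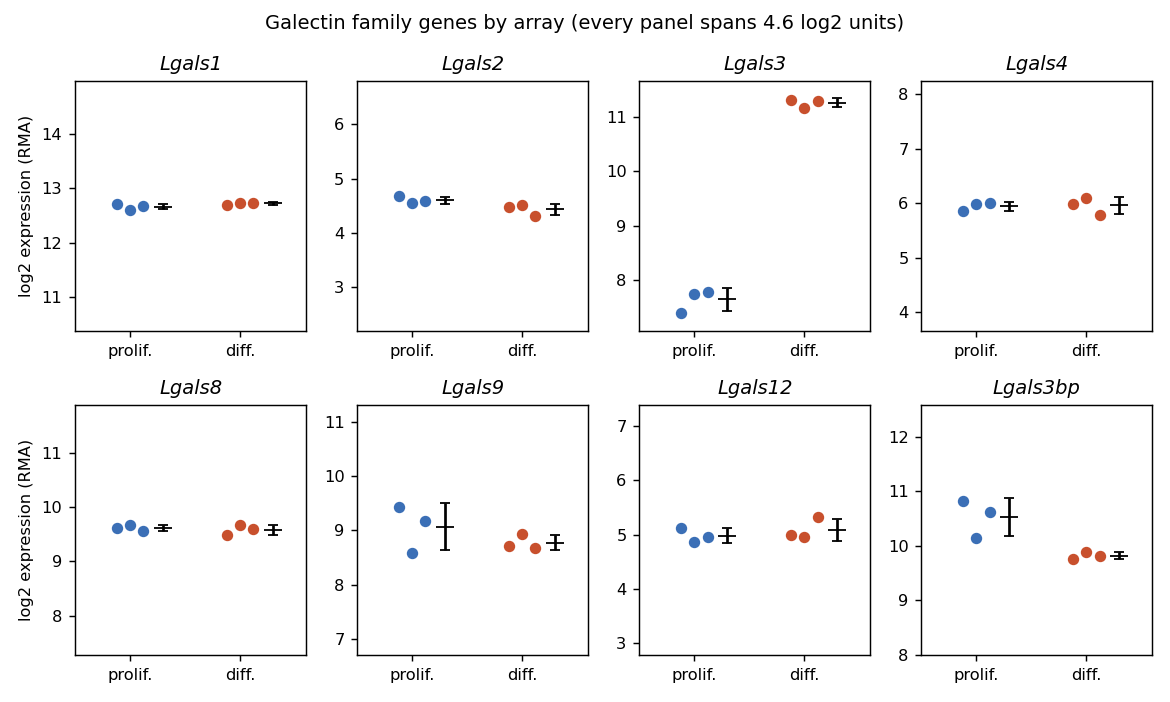
Log2 expression of the 8 genes of the family on the 3 proliferation arrays (blue) and the 3 differentiation arrays (red), 1 point per array, with the mean and SD of each group in black. The vertical axes differ in position but all span the same range, and the groups of Lgals3 lie 3.38 log2 units apart at their nearest arrays, while those of Lgals1, Lgals4, Lgals8, Lgals9 and Lgals12 overlap.

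The prototype galectins differed little. Lgals1 (transcript cluster 10425161) had log2 values of 12.71, 12.61 and 12.68 in proliferation and 12.70, 12.73 and 12.74 in differentiation. The groups overlapped, and the difference of 0.06 (standard error 0.08) had a 95% interval from -0.12 to 0.24 on the log2 scale. The values lie near the top of the range of these arrays, and the gene table lists a pseudogene of Lgals1, with which probes may be shared. Lgals2 (transcript cluster 10430425) was dim, with 4.68, 4.55 and 4.58 in proliferation and 4.48, 4.51 and 4.31 in differentiation. Its groups were separated by 0.04, and its difference was -0.17 (standard error 0.09, 95% interval from -0.38 to 0.05).

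The tandem-repeat galectins 4, 8 and 12 had small differences with overlapping groups. Lgals8 (transcript cluster 10407766), whose protein binds integrins and marks damaged vesicles for autophagy, had log2 values of 9.61, 9.66 and 9.55 in proliferation and 9.49, 9.67 and 9.59 in differentiation. Its groups overlapped, with a difference of -0.02 (standard error 0.08, 95% interval from -0.22 to 0.18). Lgals4 (transcript cluster 10551626) had 5.85, 5.98 and 6.00 in proliferation and 5.99, 6.10 and 5.79 in differentiation, and its groups overlapped as well. Its difference was 0.01 (standard error 0.11, 95% interval from -0.24 to 0.26), and probes of this row may be shared with Lgals6, a close mouse copy of Lgals4 that was not analysed here. Lgals12 (transcript cluster 10465701) had 5.13, 4.86 and 4.96 in proliferation and 4.99, 4.95 and 5.32 in differentiation, again with overlap, and a difference of 0.10 (standard error 0.13, 95% interval from -0.21 to 0.41). The means of Lgals2, Lgals4 and Lgals12 over the 6 arrays lay below the median row mean of 6.15, and since no detection call was used, whether these genes were expressed cannot be said.

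Lgals9 and Lgals3bp, both known to respond to interferon, had lower means in differentiation and an uneven proliferation group. Lgals9 (transcript cluster 10388902) had log2 values of 9.43, 8.59 and 9.18 in proliferation and 8.71, 8.93 and 8.67 in differentiation. Proliferation replicate 2 lay below all differentiation arrays, so the groups overlapped, and the difference was -0.30 (standard error 0.21). Without proliferation replicate 2 it was -0.53, and without proliferation replicate 1 it was -0.12. Lgals3bp (transcript cluster 10393573) had 10.83, 10.15 and 10.62 in proliferation and 9.76, 9.88 and 9.82 in differentiation. Here the groups did not overlap, by 0.27 log2 units, with means of 10.53 ± 0.35 and 9.82 ± 0.06 (SD, n = 3). The difference was -0.71 (standard error 0.17), a 1.64-fold lower level in differentiation, which missed the threshold of an adjusted p under 0.05 over all rows. It lay past that threshold without proliferation replicate 2, where the difference was -0.90, and in no fit without another array, and also when only rows with 1 symbol or rows at or above the median mean were tested.

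Proliferation replicate 2 was the lowest array of its group for both genes, and marker sums differed between the proliferation arrays as well. The summed linear values of 8 fibroblast markers were 16000, 9960 and 11900 on the 3 proliferation arrays and 12700, 13000 and 13800 on the differentiation arrays. Those of 19 measured interferon response genes were 3120, 2480 and 3010, and 2760, 2960 and 2680. In both sums proliferation replicate 1 was highest and replicate 2 lowest of the proliferation arrays, the order that Lgals9 and Lgals3bp showed. Sums of macrophage, adipocyte and mesothelial markers, and of the ligand, glycan branching, sialic acid and damaged-lysosome lists below, had this order too. It was therefore not particular to fibroblast markers or interferon response genes. Epithelial, smooth muscle and enteric neuron markers gave different orders. Other sums had replicate 2 highest, with 10800, 14100 and 12100 for 6 enteric glia markers and 430, 477 and 409 for 7 endothelial markers on the proliferation arrays. Of the endothelial markers, 5 lay below the median row mean. Cdh5 was not 1 of these 5, with a mean of 6.18 over the 6 arrays. It varied most of the 7 on the proliferation arrays, with log2 values of 5.79, 6.65 and 5.95. The part of these sums in either result was not tested. None of the 19 interferon response genes passed limma's test, while 2 had an unadjusted p under 0.05 and 0 were called by the methods' t-test. Without proliferation replicate 2, 1 of them passed, with a lower value. The median difference of the interferon list was 0.03 on the log2 scale.

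Counted together, 1 of the 8 genes (Lgals3) lay past an adjusted p under 0.05 and 7 did not. Over all genes, 5.91% were past this threshold, 2.94% higher and 2.97% lower in differentiation. The groups did not overlap in 3 of the 8, Lgals3 with higher values and Lgals2 and Lgals3bp with lower ones, where 27.5% of all genes had groups that did not overlap. Since the genes were taken up with this comparison known, nothing is read from these counts. The median difference over the 8 was -0.01, and over all genes 0.02. A further 3 genes of the galectin fold were measured. Lgalsl, which encodes a galectin-like protein without the usual sugar binding, had a difference of -0.28 (standard error 0.09, adjusted p = 0.205 from limma) with groups that did not overlap. Lgals7 and Grifin had differences of 0.05 and 0.20 (adjusted p = 0.885 and 0.503 from limma), and the first changed sign after cyclic loess.

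**Figure D2:**
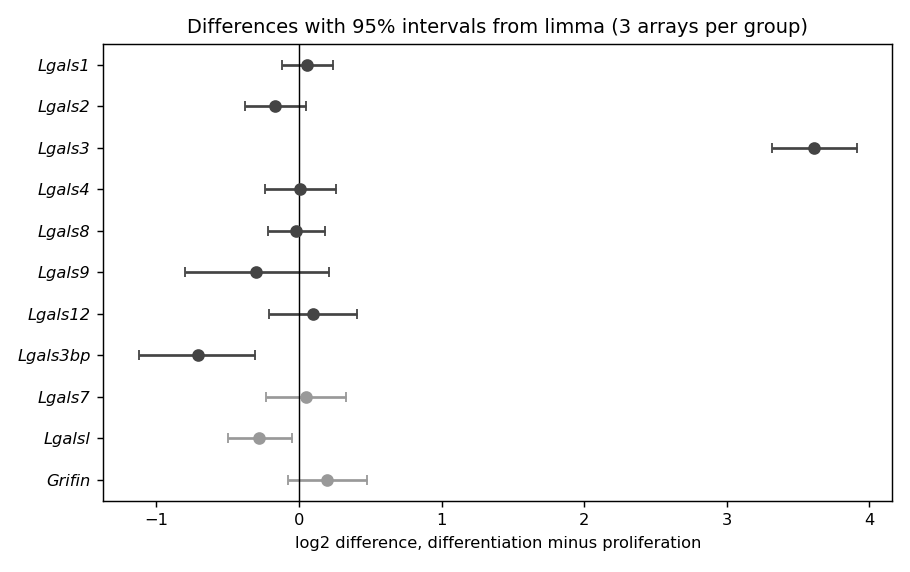
Log2 difference, differentiation minus proliferation, of the 8 genes of the family (dark) and of 3 further genes of the galectin fold (light), with 95% intervals from limma and 3 arrays per group. Lgals3 lies at 3.61, Lgals3bp at -0.71, and all others between -0.30 and 0.20.

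Galectin-3 is a macrophage antigen, and macrophage markers were therefore read beside it. All 15 were measured, 14 of them below the median row mean, and Lyz2 was the exception. Their summed linear value ranged from 575 to 728 in proliferation and from 597 to 646 in differentiation. None passed limma's test, 2 had an unadjusted p under 0.05, Fcgr1 with a difference of 0.24 and Lyz2 with -0.71, and the methods' t-test called 0. Without proliferation replicate 2, 1 of the 15 passed, with a lower value. Adgre1, Csf1r, Aif1 and Itgam stood between 4.39 and 5.06 on all arrays. Higher values were seen for Cd68 (5.88 to 6.51), Cx3cr1 (5.85 to 6.45) and Lyz2 (6.21 to 7.41). The sums of 12 epithelial markers (579 to 685 in proliferation and 588 to 733 in differentiation) and of 8 adipocyte markers (447 to 504 and 491 to 514) overlapped too, and none of either list passed (0 at an unadjusted p under 0.05 and 0 by the methods' t-test). Of the other lists, 0 of 8 fibroblast markers passed (2 at an unadjusted p under 0.05 and 0 by the methods' t-test, median difference 0.06). Of 8 smooth muscle markers 4 rose and 1 fell, of 6 enteric glia markers 1 rose and 2 fell, and of 9 enteric neuron markers 2 rose and 7 did not pass. The shares called were 62.5%, 50.0% and 22.2%, beside 5.91% of all genes. When differentiation replicate 1 was dropped the calls came to 2 for smooth muscle, 0 for glia and 1 for neurons. They came to 3, 0 and 2 when proliferation replicate 3 was dropped, to 4, 0 and 1 when differentiation replicate 3 was dropped, and to 1 for neurons when either proliferation replicate 1 or differentiation replicate 2 was dropped. The part of any of these cell types in the level of Lgals3 was not tested.

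The genes on either side of Lgals3 on its chromosome did not share its increase. Mapk1ip1l, which lies before it in the gene table, had log2 values of 11.77, 11.72 and 11.72 in proliferation and 11.56, 11.61 and 11.60 in differentiation. It was slightly lower in differentiation on every array, and the difference of -0.14 did not pass the test (standard error 0.07, adjusted p = 0.421 from limma). Dlgap5, which lies after it and encodes a protein of the mitotic spindle, had 7.58, 8.37 and 7.93 in proliferation and 6.12, 6.09 and 6.14 in differentiation. It fell by 1.84 on the log2 scale (standard error 0.19, adjusted p = 0.00571 from limma) and passed with each array left out. Of the 14 neighbours of the other 7 genes, all were measured and 0 passed limma's test, while 3 had an unadjusted p under 0.05 and the methods' t-test called 1.

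The genes whose values over the 6 arrays, each centred on its own mean, lay nearest to those of Lgals3 were Aqp1, a water channel, Casq2, which stores calcium in the sarcoplasmic reticulum, Arsi, an arylsulfatase, Gpnmb, a membrane glycoprotein of lysosomes and melanosomes, and Enpp6, a phosphodiesterase of myelinating cells. Their distances were 0.61, 0.67, 0.95, 1.18 and 1.22 log2 units, as the root of the summed squares over 6 arrays. They were picked for this likeness, so their values are a description. Aqp1 had log2 values of 6.41, 6.36 and 6.44 in proliferation and 9.64, 9.50 and 10.11 in differentiation. Gpnmb had 7.53, 7.24 and 7.68 and then 10.27, 10.07 and 10.30. Their differences were 3.35 and 2.73 on the log2 scale, and those of Casq2, Arsi and Enpp6 were 3.19, 2.95 and 2.64.

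Galectins act through the glycoproteins they bind, and 6 lists of partner genes were examined with the same fit over all rows. Together, with the 3 galectin-fold genes above, they hold 107 measured genes, of which 6 rose, 4 fell and 97 did not pass limma's test. This is 9.35% called, beside 5.91% of all genes, and the median difference was 0.02, the same as over all genes. The 5.91% covers genes of every brightness. At or above the median row mean were 23 of 28 ligands and receptors, 20 of 22 branching enzymes and 14 of 19 sialic acid and fucose enzymes. So were 15 of 16 damaged-lysosome, 11 of 19 interferon and 1 of 3 other galectin-fold genes. The shares may therefore cover genes of unlike brightness, and no excess is read from them. The number of partner genes called fell to 2 when differentiation replicate 1 was dropped, to 5 when proliferation replicate 3 or differentiation replicate 2 was, and to 6 when differentiation replicate 3 was. It was 3 with the replicate number as a block, namely Cspg4, Itga7 and St3gal6.

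The calls lay mostly among the 28 ligands and receptors of galectins, of which 4 rose, 3 fell and 21 did not pass (median difference 0.04). This is 25.0% called, beside 5.91% of all genes, with the same limit on brightness. Cspg4 encodes the NG2 proteoglycan, a surface ligand of galectin-3 on glial and mural progenitors. Its log2 values were 10.36, 10.46 and 10.30 in proliferation and 8.76, 8.82 and 8.86 in differentiation. The groups lay far apart, and Cspg4 fell by 1.56 (standard error 0.08, adjusted p = 0.00125 from limma). Itga7, an integrin chain of muscle that is a ligand of galectin-1, had log2 values of 6.97, 6.22 and 6.72 in proliferation and 8.66, 8.60 and 8.87 in differentiation. It rose by 2.07 (standard error 0.19, adjusted p = 0.00438 from limma), and both genes passed with each array left out.

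Mertk, a receptor for the uptake of dying cells that binds galectin-3, had log2 values of 7.86, 7.23 and 7.55 in proliferation and 8.70, 8.94 and 8.66 in differentiation and rose by 1.22 (adjusted p = 0.0128 from limma). Muc1, a membrane mucin, and Mcam, an adhesion molecule, rose by 0.97 and 0.55 (adjusted p = 0.0365 and 0.0426). Itga1, a collagen-binding integrin chain, and Nrp1, a coreceptor of semaphorins and VEGF, fell by 0.74 and 0.57 (adjusted p = 0.0152 and 0.0159). In each of these genes the arrays of the groups did not overlap, as in 27.5% of all genes. The genes were named for passing limma's test on the same arrays, so this adds no support. Mertk did not pass when proliferation replicate 3, differentiation replicate 1 or differentiation replicate 2 was dropped (0.0514 to 0.0681 as adjusted p). Muc1 and Mcam each passed with 1 array dropped only, proliferation replicate 1 for Muc1 (0.0792 to 0.143 with the others) and proliferation replicate 2 for Mcam (0.0911 to 0.17). Mcam did not pass after median centring either (adjusted p = 0.0673 from limma). Itga1 depended on differentiation replicates 1 and 2 (0.0555 to 0.0895 with either dropped), and Nrp1 on proliferation replicate 3 and differentiation replicate 1 (0.0833 to 0.0959). The integrin chains Itgb1 and Itgav, the lysosomal glycoproteins Lamp1 and Lamp2, and Fn1 did not pass, with differences of 0.17, -0.09, 0.19, 0.08 and 0.24 (adjusted p = 0.45, 0.663, 0.264, 0.696 and 0.683). The list held 2 calls when differentiation replicate 1 was dropped and 3 when proliferation replicate 3 or differentiation replicate 2 was.

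Sugars on these ligands set how well galectins bind. Of 22 measured enzymes of N-glycan branching and N-acetyllactosamine synthesis, 1 rose and 21 did not pass, with a median difference of -0.15. The share called was 4.55%, beside 5.91% of all genes. At an unadjusted p under 0.05, 2 were higher and 6 lower, and the methods' t-test called 2. Gcnt2, which branches polylactosamine chains, had log2 values of 7.24, 6.83 and 7.55 in proliferation and 8.01, 8.16 and 8.27 in differentiation and rose by 0.94 (adjusted p = 0.0415 from limma). Mgat5, which makes the branch that carries high-affinity galectin-3 ligands, and B4galt1, which adds galactose, had differences of -0.31 and -0.42 (adjusted p = 0.336 and 0.0628), and Mgat4a, another branching enzyme, had -1.04 (adjusted p = 0.0515). Gcnt2 did not pass without proliferation replicate 1 or any 1 differentiation array (adjusted p from 0.0967 to 0.124), and Mgat4a passed without proliferation replicate 2 (adjusted p = 0.0446). Mgat4a lay near the threshold and also passed in limma-trend, after cyclic loess or median centring, among brighter rows, among rows with 1 symbol and with array weights (adjusted p from 0.000637 to 0.044), as well as by the methods' t-test without correction. With proliferation replicate 2 left out 2 genes of the list were called, and with proliferation replicate 1 or any 1 differentiation array left out 0 were.

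Among 19 enzymes that add or remove terminal sialic acid or fucose, 1 rose, 1 fell and 17 did not pass (median difference 0.08). The share called was 10.5%, beside 5.91% of all genes. St6gal1 adds alpha-2,6-linked sialic acid, which blocks binding by galectin-1. Its log2 values were 9.82, 9.90 and 9.87 in proliferation and 10.37, 10.31 and 10.50 in differentiation, and it rose by 0.53 (standard error 0.08, adjusted p = 0.0203 from limma). St3gal6, which adds sialic acid in alpha-2,3 linkage, had 8.56, 9.02 and 8.93 and then 7.63, 7.74 and 7.51, and fell by 1.21 (standard error 0.14, adjusted p = 0.00737). The groups overlapped in neither gene, but both were named for passing limma's test on the same arrays. St6gal1 did not pass when replicate 1 or 3 of either group was dropped (0.0538 to 0.106 as adjusted p), and St3gal6 did not pass when differentiation replicate 1 was (adjusted p = 0.0514 from limma). With that array dropped 0 genes of the list were called, and with replicate 1 or 3 of proliferation or replicate 3 of differentiation dropped it was 1.

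Inside the cell, galectin-3, galectin-8 and galectin-9 mark damaged lysosomes. Of 16 measured genes of that response, 0 passed limma's test, 3 had an unadjusted p under 0.05 and the methods' t-test called 1, with a median difference of 0.02. Without proliferation replicate 2, 1 passed, with a lower value. Trim16, which links galectin-3 to autophagy, Tfeb, which drives lysosomal genes, and Map3k7, the kinase TAK1, had differences of -0.44, 0.06 and -0.08 (adjusted p = 0.241, 0.803 and 0.722 from limma). Tfrc, the transferrin receptor, had -0.65 (adjusted p = 0.0836).

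**Figure D3:**
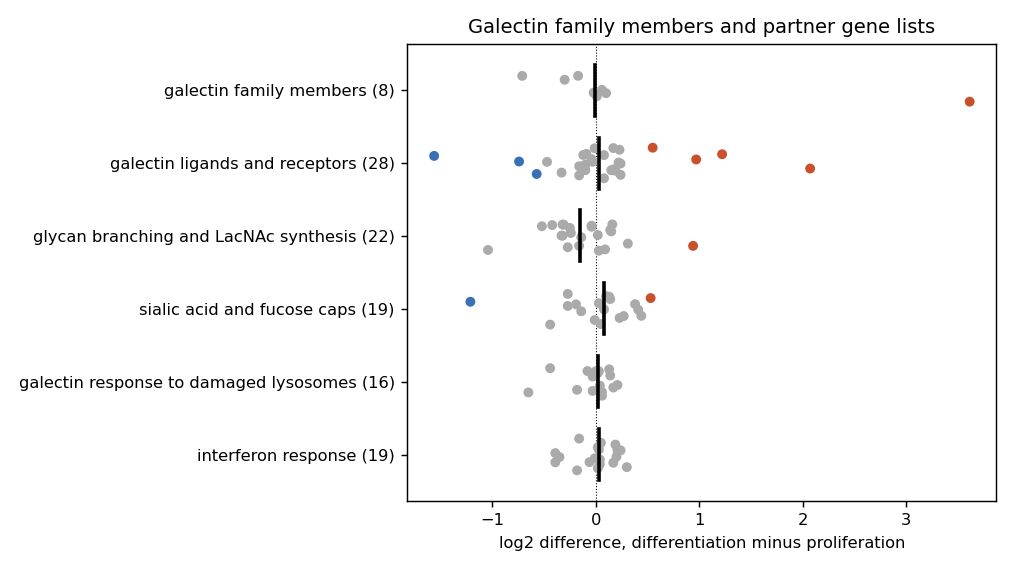
Log2 difference, differentiation minus proliferation, of single genes (points) by gene list, with the number measured in brackets. Red (higher) and blue (lower) genes were past limma's adjusted threshold, grey genes were not, black bars are list medians and the vertical scatter carries no value. Lgals3 at 3.61 lies to the right of every partner gene, and the medians run from -0.15 to 0.08.

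**Figure D4:**
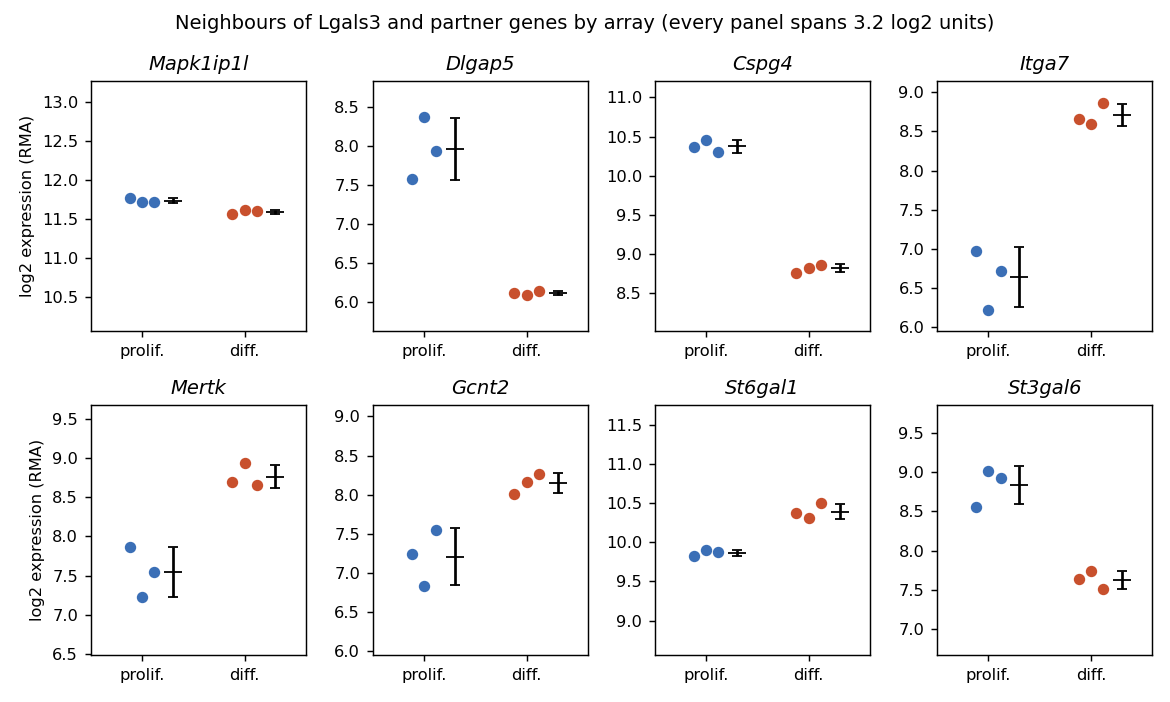
Log2 expression of the neighbours of Lgals3 (Mapk1ip1l and Dlgap5) and of 6 partner genes on the 3 proliferation arrays (blue) and the 3 differentiation arrays (red), with the mean and SD of each group in black and axes of equal span. The groups of Dlgap5 lie 1.44 log2 units apart at their nearest arrays, and those of Mapk1ip1l 0.10.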

How the data were processed

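Expression was measured in 6 enterosphere samples with 1 GeneChip Mouse Gene 1.0 ST array each. The authors scanned the arrays with AGCC 3.0, checked them with Expression Console 1.0 and made the deposited log2 values with RMA in Partek Software 6.6. A genome build for them is not given in the sources used here. RMA equalises the distributions of the arrays, so a shift shared by most genes would not be seen. Groups came from the sample titles.

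Of 35556 rows, 21789 carried 1 gene symbol in the platform annotation (1621 several, 12146 none). A gene table of GRCm38.p6, used for names and neighbours, held 21698 genes with an identifier of a row. The row with the highest mean stood for a gene. The comparison was a two-sided test of group in limma 3.58.1 under R 4.3.3, with Benjamini-Hochberg adjustment over all unfiltered rows and a threshold of 0.05. The fit was tested on simulated data. Precision rests on 3 arrays per group, for which an exact permutation test gives no p below 0.1. The study's methods describe 3 independent experiments with pups of a shared litter in each, so both groups may share experiments, but the labels do not say that a replicate number marks one, and p-values measure the spread between these samples. Correlations between arrays were 0.988 to 0.995 within groups and 0.983 to 0.989 across. Summed values are sums of 2 raised to the log2 values.

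The members and lists were chosen with earlier results of these data known. The rule for names took all members, other galectin-fold genes, called genes of the lists up to 6 by size, neighbours on the chromosome and the 5 genes nearest to Lgals3. All called ligands and receptors were named, which took in Mcam, the smallest of them by size, beyond that limit. Genes that did not pass and sums by array were picked after their values were seen. Of 114 partner entries, 107 genes were measured. Endothelial and mesothelial marker lists gave 0 calls by limma (1 and 0 at an unadjusted p under 0.05, 0 and 0 by the methods' t-test). As alternatives the replicate number was added as a block, limma-trend, cyclic loess, median centring, array weights, brighter rows, rows with 1 symbol, means over rows, the methods' t-test and a 1.5-fold minimum were tried, and each array was left out. Plots were drawn with matplotlib 3.10.9 in Python 3.11.15.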

Additional observations from a re-analysis of the deposited data

How the results depend on the processing

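Lgals3 lay past the threshold in every alternative run, with log2 differences from 3.49 to 3.69. Of the 8 genes, 2 were past it among rows at or above the median mean, among rows with 1 symbol, by the methods' t-test without correction and in the mean of all rows of a symbol, the second being Lgals3bp, and 3 with array weights, which added Lgals9. With 1 array left out the number was 1 to 2. The log2 difference of Lgals3bp ranged from -0.90 to -0.57 and that of Lgals9 from -0.53 to -0.12, while those of Lgals4, Lgals8 and Lgals12 crossed 0. Lgals7 went to -0.01 after cyclic loess, and with 1 array left out to as low as -0.03 and as high as 0.15.

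Partner genes called numbered 10, against 3 with the replicate block, 17 with limma-trend, 18 among rows at or above the median mean, 18 among rows with 1 symbol, 56 with array weights, 1 by the methods' t-test after Benjamini-Hochberg, and 2 to 12 with 1 array left out. Over all rows 1459 were called, against 664 with the block, 12721 with array weights, 253 by the t-test after adjustment and 294 to 1297 with 1 array left out. Array weights rested on 2 arrays, with 7.45 for differentiation replicate 1 and 3.62 for proliferation replicate 3, and at most 0.491 for the others. The labels do not tie replicate numbers to the experiments that the groups may share. Deviations of same-numbered arrays correlated at -0.00301, 0.0898 and -0.0742, and those of differently numbered arrays of the groups at -0.175 to 0.157. A block by replicate number may therefore not match the shared experiments, and it was kept as an alternative. With it Mertk, Muc1, Mcam, Itga1, Nrp1, Gcnt2 and St6gal1 did not pass (adjusted p from 0.0554 to 0.11). Arrays give no counts, and for dim genes the difference is bounded by background.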
